A study of Mus musculus with 11 samples.

Results

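Cytotoxic lymphocytes, chiefly CD8+ T cells and natural killer (NK) cells, kill by releasing granules onto a target cell. Perforin opens the target's membrane, granzymes enter and cleave proteins inside, and Fas ligand on the killer's surface can start death through the Fas receptor instead. Receptors of the NKG2 family tell the killer which cells to engage. The genes described here are 10 cytotoxic effectors found by gene name in the count table: the granzymes Gzma, Gzmb, Gzmc and Gzmk, the granule proteins Prf1 and Nkg7, the death ligand Fasl, the receptors Klrd1 and Klrk1, and the transcription factor Eomes. They are 10 of the 49315 genes in the table.

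The series compared whole neonatal skin of mice given PBS or a toxin meant to deplete regulatory T cells (Tregs), sequenced in bulk from 11 mice, with each library from a different mouse. Every mouse, controls included, was Foxp3-DTR, a strain on the C57BL/6J background in which the Foxp3 locus drives the diphtheria toxin (DT) receptor, so that DT kills cells that express Foxp3. The 2 PBS mice were the controls and received no DT. DT was given as 2 doses on postnatal days 6 and 8 in the 3 EarlyDT mice (ΔETreg), as 2 doses on days 10 and 12 in the 3 LateDT mice (ΔLTreg), and as 4 doses from day 6 to day 12 in the 3 FullDT mice (ΔTreg). The study's text gives 30 ng/g per dose for the EarlyDT and FullDT regimens. It gives no amount for the LateDT regimen, which is taken here to be the same. EarlyDT skin was taken on day 9, and LateDT and FullDT skin on day 13. The harvest day of the 2 PBS mice, which serve as control for both days, is not given in the labels. The study describes its controls as matched in age, but the labels do not tie either PBS library to a day. Age and treatment therefore cannot be told apart wherever EarlyDT is set against LateDT or FullDT, and age may also differ in any comparison with PBS. Both sexes were used and the sex of each mouse was not recorded.

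Total counts ran from 23377571 to 34159435 per library, with medians of 27229727 in EarlyDT, 32121794 in LateDT and 32756819 in FullDT, and with 29104226 and 25075547 in the PBS mice. Foxp3 had 20 and 14 counts in the PBS mice, 10, 16 and 11 in EarlyDT, 23, 13 and 13 in LateDT, and 9, 19 and 18 in FullDT. In CPM (counts scaled to library size) each EarlyDT mouse lay below both PBS mice in Foxp3, while LateDT and FullDT overlapped PBS. The log2 fold changes from PBS were -0.49 ± 0.32 (SE) in EarlyDT, -0.23 ± 0.31 in LateDT and -0.30 ± 0.31 in FullDT, and none passed adjustment (adjusted p 1.00, 0.738 and 0.546), so the groups are named here as labelled. Cd3e, part of the T cell receptor complex, had between 76 and 342 counts in every library, so T cell transcripts were measured in all groups.

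Each of the 10 effectors was higher in FullDT skin than in PBS skin past the adjusted p threshold of 0.05 (edgeR's quasi-likelihood test, adjusted by the Benjamini-Hochberg method over 18375 genes). Across the genes tested, 12.1% were called higher in that comparison. The 10 were also called higher in FullDT than in LateDT, where the background was 10.7%, and higher in FullDT than in EarlyDT, where it was 13.2%. Every FullDT mouse lay above every other mouse for each of the 10, an arrangement that 12.9% of the genes tested shared. These comparisons share the FullDT mice, and the comparisons with PBS share the same 2 PBS mice. All 10 genes passed the filter on low counts, but 5 of them (Gzma, Gzmb, Gzmk, Fasl and Eomes) passed only through the FullDT libraries, so a gene of that kind that was tested had to differ.

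EarlyDT and LateDT skin gave a different picture. No effector was called in EarlyDT against PBS, where the background of genes called higher was 0.00544%, 0 had an unadjusted p under 0.05, and DESeq2 called 0 of the 4 that its own filter kept. No effector was called in LateDT against PBS, with a background of 1.86%, although 3 had an unadjusted p under 0.05. DESeq2 called 0 of the 7 it kept. Between LateDT and EarlyDT, 2 effectors (Prf1 and Klrk1) were higher in LateDT, with a background of 3.12%. The median log2 fold change of the 10 genes was 4.03 in FullDT against PBS, and 3.11 when the 5 genes with 3 or fewer counts in the PBS group were entered at their bound or counting ratio. It was -0.04 in EarlyDT against PBS and 0.64 in LateDT against PBS. The median of all genes tested was -0.0059, -0.0098 and 0.004 in these comparisons.

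**Figure D1:**
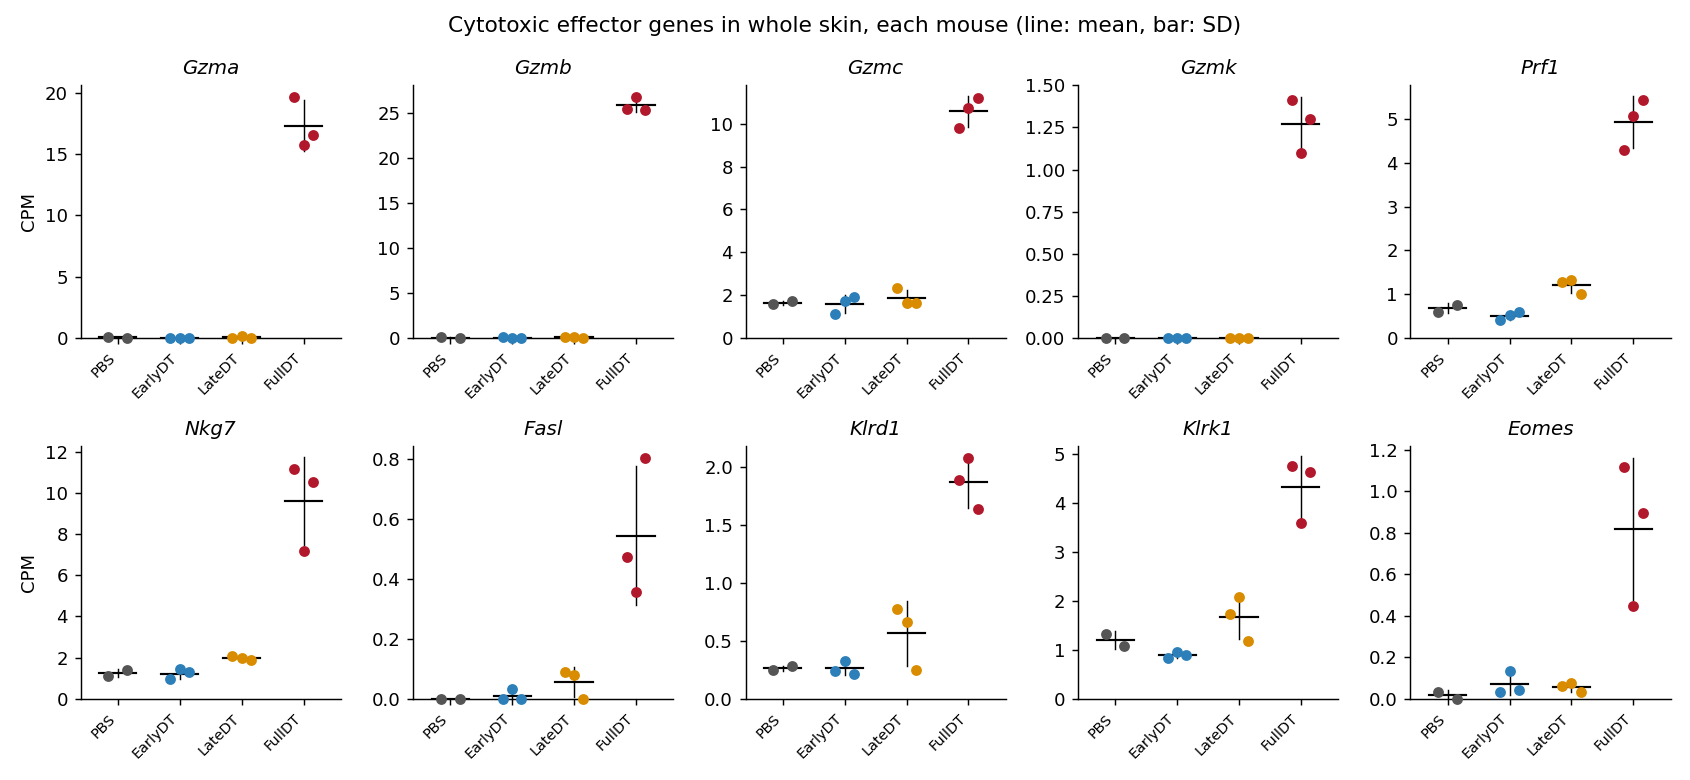
Level of each effector gene in each mouse, in CPM (counts scaled to a library of 1e+06 reads, vertical axis, linear, its own scale in each panel) by group (horizontal axis). Points are mice (2 PBS, 3 in each other group), lines are group means and bars are 1 SD, stopped at 0; every FullDT point lies above every other point in each of the 10 panels.

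Granzymes are serine proteases that enter the target cell, and their levels were far apart in PBS skin, where Gzmc was the highest of the 10 effectors per length and Gzmk had no count. Gzmb encodes granzyme B, which cuts after aspartate and activates caspases (ENSMUSG00000015437, chromosome 14, 56258838 to 56262260 of GRCm38, minus strand). It had 3 and 0 counts in the PBS mice, 2, 0 and 0 in EarlyDT, 3, 4 and 1 in LateDT, and 593, 901 and 820 in FullDT. The transcript was close to absent outside FullDT, and the FullDT mice were far apart from all others. Against the 3 counts of the PBS group the FullDT level was 463-fold higher, with a 95% counting interval of 158 to 2248. All 3 counts came from PBS replicate 1: without it the difference was at least 217-fold, and without PBS replicate 2 the ratio was 247 (84.2 to 1200). The FullDT mice lay close together, at 25.4, 26.7 and 25.4 CPM (25.8 ± 0.789, SD, n = 3), a coefficient of variation of 3.05%.

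Gzma encodes granzyme A, a tryptase-like granzyme (ENSMUSG00000023132, chromosome 13, 113093825 to 113100981, minus strand). Its counts were 2 and 1 in the PBS mice, 1 in each EarlyDT mouse, 0, 5 and 0 in LateDT, and 458, 529 and 536 in FullDT. As with Gzmb, no mouse outside FullDT held more than 5 counts. The ratio of FullDT to PBS was 305, with a counting interval of 104 to 1480, and the mean in FullDT was 17.3 ± 2.07 CPM (SD, n = 3).

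Gzmk lies 70.6 kb from Gzma on the same chromosome and encodes another trypsin-like granzyme (ENSMUSG00000042385, 113171608 to 113225908, minus strand). It had 0 counts in all 8 mice outside FullDT, and 33, 37 and 42 counts in the FullDT mice. Taking 3 counts over the group as the floor that a count of 0 allows, Gzmk was at least 22.4-fold higher in FullDT than in PBS, at least 34.5-fold higher than in EarlyDT and at least 38.0-fold higher than in LateDT. Counting intervals and floors come from counts pooled over the mice of a group, so they leave out the spread among mice. Reads carry no molecular identifiers, so counting error itself may be larger than these show.

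Gzmc, a granzyme encoded beside Gzmb in the mouse, differed from the other 3 granzymes among the effectors in that every mouse held at least 32 counts (ENSMUSG00000079186, chromosome 14, 56231441 to 56234656, minus strand). It had 45 and 43 counts in the PBS mice, 32, 53 and 45 in EarlyDT, 78, 42 and 52 in LateDT, and 228, 362 and 362 in FullDT. PBS, EarlyDT and LateDT overlapped in CPM, and FullDT stood above them at 10.6 ± 0.724 CPM (SD, n = 3) against 1.64 ± 0.0968 (n = 2) in PBS. The log2 fold change was 2.68 ± 0.22 (SE) in FullDT against PBS, a 6.43-fold difference with an adjusted p of 1.71e-05, and higher in 3 of 3 mice.

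Prf1 encodes perforin, the pore-forming protein without which granzymes do not reach the target's cytosol (ENSMUSG00000037202, chromosome 10, 61297833 to 61304680, plus strand). The counts were 17 and 19 in PBS, 12, 16 and 14 in EarlyDT, 43, 34 and 32 in LateDT, and 100, 171 and 176 in FullDT. The groups formed separate steps in CPM from LateDT upwards: each LateDT mouse was above each PBS and EarlyDT mouse, and each FullDT mouse above each LateDT mouse. FullDT exceeded PBS 7.32-fold (log2 fold change 2.87 ± 0.22, SE; adjusted p 1.06e-05) and LateDT 4.11-fold (2.04 ± 0.17; adjusted p 1.95e-05).

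Nkg7 encodes a membrane protein of cytotoxic granules that takes part in their release (ENSMUSG00000004612, chromosome 7, 43437073 to 43438249, plus strand). It had 32 and 35 counts in PBS, 27, 44 and 30 in EarlyDT, 69, 51 and 60 in LateDT, and 260, 242 and 340 in FullDT. PBS and EarlyDT overlapped, LateDT lay above both, and FullDT was highest at 9.62 ± 2.13 CPM (SD, n = 3). The FullDT mean was 7.63-fold that of PBS (log2 fold change 2.93 ± 0.24, SE; adjusted p 1.58e-05). With Prf1 it was 1 of 2 effectors whose LateDT mice were all above the PBS and EarlyDT mice, as were 7.59% of the genes tested.

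Klrk1 and Klrd1 encode receptors of the NK gene complex, 11.5 kb apart on chromosome 6. Klrk1 is NKG2D, an activating receptor for stress-induced ligands (ENSMUSG00000030149, 129610323 to 129623864, minus strand). It had 38 and 27 counts in PBS, 24, 29 and 21 in EarlyDT, 58, 53 and 38 in LateDT, and 111, 121 and 150 in FullDT. In CPM, LateDT overlapped PBS but not EarlyDT. The FullDT difference from PBS was the smallest among the 5 effectors with more than 3 counts in both groups, at 3.57-fold (log2 fold change 1.83 ± 0.24, SE; adjusted p 0.000358).

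Klrd1 is CD94, which pairs with NKG2 proteins to read nonclassical MHC class I (ENSMUSG00000030165, 129591782 to 129598775, plus strand). It had 7 counts in each PBS mouse, 7, 10 and 5 in EarlyDT, 26, 17 and 8 in LateDT, and 44, 70 and 53 in FullDT. The LateDT mice were split, with 0.775 and 0.667 CPM in replicates 1 and 2 against 0.25 in replicate 3, which lay within the PBS range. FullDT was 7.05-fold above PBS (adjusted p 0.000704) and 3.31-fold above LateDT (adjusted p 0.00263).

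Fasl, the ligand of the death receptor Fas, and Eomes, a T-box factor of NK cells and CD8+ T cells, were the least abundant per length in FullDT. Fasl (ENSMUSG00000000817, chromosome 1, 161780689 to 161788495, minus strand) had 0 counts in both PBS mice, 0, 1 and 0 in EarlyDT, 3, 2 and 0 in LateDT, and 11, 12 and 26 in FullDT. It was at least 9.81-fold higher in FullDT than in PBS, and 9.29-fold higher than in LateDT (adjusted p 0.00787). Without LateDT replicate 1, which held 3 of the 5 LateDT counts, the ratio to LateDT was 15.8 with a counting interval of 4.13 to 134 (adjusted p 0.0162). Without FullDT replicate 3, which held more than the other FullDT mice, Fasl no longer passed the filter and was not tested.

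Eomes (ENSMUSG00000032446, chromosome 9, 118478212 to 118486132, plus strand) had 1 and 0 counts in PBS, 1, 4 and 1 in EarlyDT, 2, 2 and 1 in LateDT, and 26, 15 and 29 in FullDT. The ratio of FullDT to PBS was 42.0 with a counting interval of 7.30 to 1684, wide because it rests on 1 count in PBS. Without PBS replicate 1, which held that count, Eomes was at least 6.56-fold higher, and without PBS replicate 2 the ratio was 22.4 (3.89 to 896). Over LateDT it was 13.5-fold higher (adjusted p 0.00098). Eomes overlaps 118 bases of exon of Gm33460 on the opposite strand, and whether counting used strand is not given in the sources used here. For the other 9 effectors, 0% of the 100-base windows of their transcripts occur in another gene.

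Levels can be set against each other across genes only per length, here as CPM per kb of exon. In FullDT the order was Gzmb at 18.0, Gzma at 17.2, Gzmc at 11.8, Nkg7 at 10.5, Prf1 at 1.91, Klrd1 at 1.46, Gzmk at 0.915, Klrk1 at 0.603, Fasl at 0.281 and Eomes at 0.197 CPM per kb. Gzmb and Gzma were not separated by their mice, nor were Gzmc and Nkg7, nor Fasl and Eomes; the other neighbours in this order did not overlap. In PBS skin the order began with Gzmc at 1.84 and Nkg7 at 1.38 CPM per kb, followed by Prf1 at 0.262, Klrd1 at 0.204 and Klrk1 at 0.168. The makeup of the summed level therefore differed. Gzmc held 46.6% ± 0.55 (SD, n = 2) of the 10 genes' CPM per kb in PBS and 18.9% ± 1.94 (n = 3) in FullDT, whereas Gzmb went from 0.976% ± 1.38 to 28.7% ± 2.39 and Gzma from 1.41% ± 0.638 to 27.3% ± 2.11. In LateDT, Nkg7 (39.4% ± 4.37, SD, n = 3) and Gzmc (37.5% ± 4.70) held the largest shares, and these were not separated. These shares are a description, with no test.

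The low levels outside FullDT were compared for Gzmc, Prf1, Nkg7, Klrd1 and Klrk1, the 5 genes that passed the filter without the FullDT libraries. In EarlyDT against PBS their log2 fold changes ran from -0.43 to 0.03, none past adjustment. In LateDT against PBS they ran from 0.19 to 1.09, again none past adjustment, with adjusted p of 0.077 for Prf1, 0.173 for Nkg7, 0.219 for Klrd1, 0.356 for Klrk1 and 0.714 for Gzmc. The larger LateDT values of Klrd1 came from 2 of its 3 mice. Without LateDT replicate 3 its log2 fold change over PBS was 1.46 and the adjusted p was 0.0366. That mouse stood apart in more than Klrd1. It had 9.64 CPM of the leukocyte marker Ptprc, against 14.4 and 18.8 in LateDT replicates 1 and 2. Its mast cell markers summed to 53.4 CPM, against 107 and 122. LateDT against EarlyDT gave 2.34-fold for Prf1 (log2 fold change 1.23 ± 0.22, SE; adjusted p 0.00988) and 1.84-fold for Klrk1 (0.88 ± 0.23; adjusted p 0.0492). The Prf1 call held in every alternative fit. The Klrk1 call was lost in 12 of 18 alternatives, with adjusted p between 0.0551 and 0.136 in these, among them leaving out any single mouse other than LateDT replicate 3. These mice also differed in age by design.

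**Figure D2:**
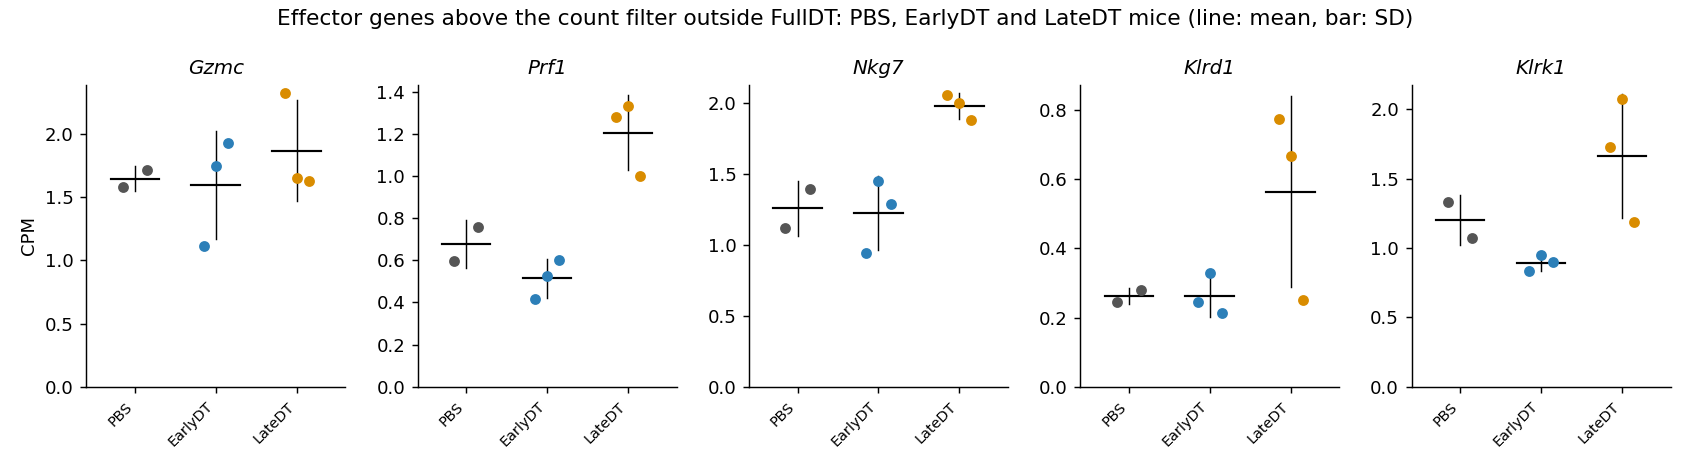
CPM (vertical axis, linear, from 0) of the effectors that passed the count filter without FullDT libraries, in each PBS, EarlyDT and LateDT mouse. Lines are means and bars 1 SD; for Prf1 and Nkg7 the 3 LateDT points lie above all PBS and EarlyDT points, and for Klrd1 the LateDT points are split.

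Of the other mouse granzymes, only Gzmm was tested. Gzmm, whose product cuts after methionine, had 13 to 33 counts in every library, with a log2 fold change of 0.02 ± 0.31 (SE) in FullDT against PBS and an adjusted p of 0.988. The chromosome 14 genes Gzmd, Gzme, Gzmf, Gzmg and Gzmn, which share a cluster with Gzmb and Gzmc, summed to 1 count in PBS, 2 in EarlyDT, 4 in LateDT and 14 in FullDT. Of those 14 counts, Gzmf had 7. At this depth the 5 genes were at or near the floor and none was tested. Of the windows of Gzmf, 6.71% occur in Gm4022, so its few reads are uncertain.

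**Figure D3:**
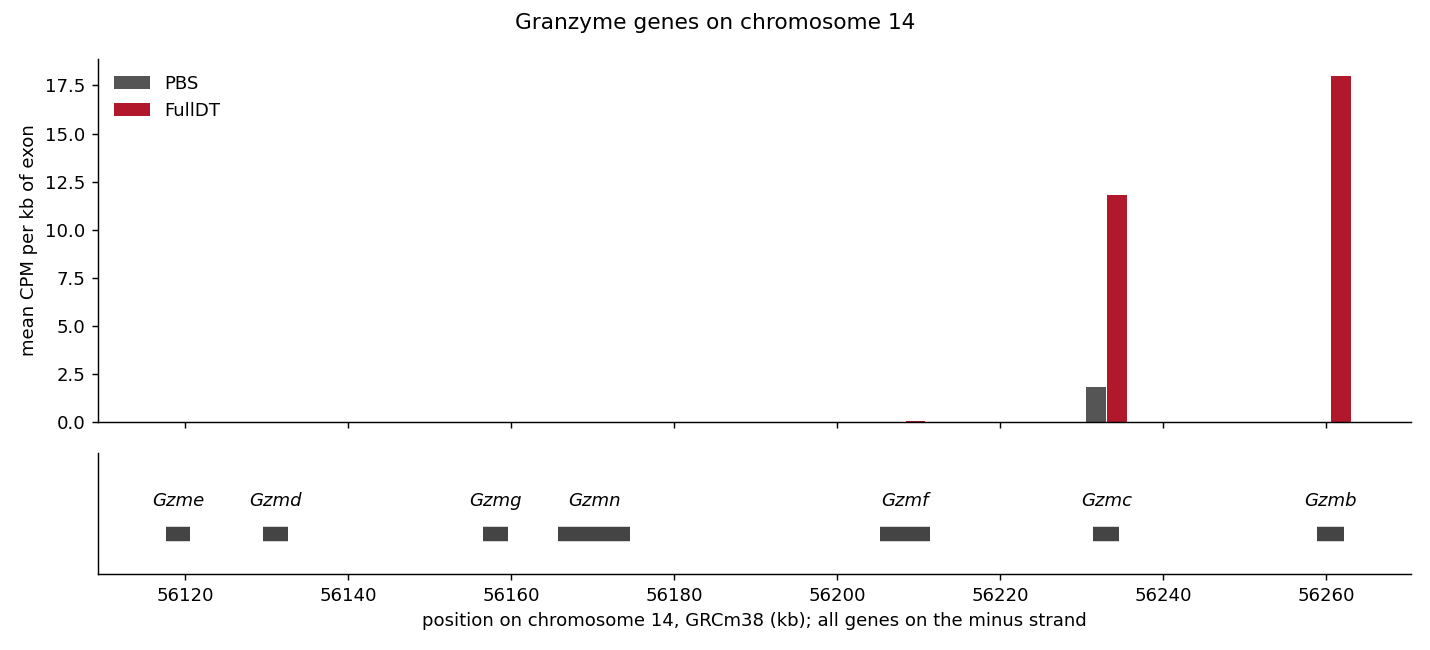
Granzyme genes on chromosome 14 of GRCm38 (horizontal axis, kb) with their mean CPM per kb of exon (vertical axis, linear) in 2 PBS mice (grey) and 3 FullDT mice (red). Gzmb reached 18.0 and Gzmc 11.8 CPM per kb in FullDT, while the 5 genes beside them stayed under 0.1.

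Granule machinery comprises proteins that activate, pack and release granzymes. Of its 10 genes, 6 rose and 1 fell in FullDT against PBS, where 9.39% of the genes tested were called lower, and the list's median log2 fold change was 0.39. Cst7 (cystatin F, an inhibitor of the cathepsins that process granzymes) rose by 1.88 ± 0.37 (SE, log2; adjusted p 0.00451), and Srgn (serglycin, the proteoglycan that holds granzymes in the granule) by 1.78 ± 0.14 (adjusted p 1.33e-05). Ctsw, a cathepsin of cytotoxic cells, rose by 1.60 ± 0.13 (adjusted p 1.39e-05), and Stx11, a syntaxin of granule fusion, by 1.10 ± 0.21 (adjusted p 0.00425). Ctsc, which removes the granzymes' propeptide, rose by 0.45 ± 0.075 (adjusted p 0.00158), and Stxbp2 by 0.29 ± 0.049 (adjusted p 0.00183). Rab27a, which tethers granules and also melanosomes to the membrane, was lower in FullDT, at -0.38 ± 0.086 in log2 against PBS (adjusted p 0.0103), but this call was lost without PBS replicate 2 (adjusted p 0.101). Lamp1, Unc13d and Lyst did not pass, with adjusted p of 0.529, 0.0704 and 0.414; Unc13d passed in 2 of 18 alternatives and Lyst in 1. Lamp1 was the most abundant of the list per length in each group, and many of these genes serve other secretory cells of the skin.

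In LateDT against PBS edgeR called 1 gene of this list, Stxbp2, at 0.21 ± 0.049 (SE, log2; adjusted p 0.0379), and it was lost in 11 of 18 alternatives. DESeq2 called 3, Stxbp2, Ctsc (log2 fold change 0.25, adjusted p 0.0407) and Rab27a (-0.32, adjusted p 0.0383). Ctsc and Ctsw, the cathepsins, were higher in LateDT than in EarlyDT, with log2 fold changes of 0.42 ± 0.066 (adjusted p 0.00579) and 0.47 ± 0.11 (adjusted p 0.0367). The Ctsw call was lost in 8 of 18 alternatives, with adjusted p of up to 0.123.

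Serpins of the B clade protect cells from granzymes. Serpinb9, the inhibitor of granzyme B, had 65 and 75 counts in PBS, 104, 78 and 57 in EarlyDT, 97, 84 and 75 in LateDT, and 152, 279 and 235 in FullDT. It rose 2.81-fold in FullDT against PBS (adjusted p 0.000676). Serpinb6b rose 3.78-fold (adjusted p 0.000173), from 16 and 13 counts in PBS to between 50 and 69 in FullDT. Serpinb6a, the most abundant of the list per length, did not pass (adjusted p 0.359), except in the fit on the FullDT and PBS libraries alone (adjusted p 0.0483). Serpinb9b, with 0 to 10 counts per library, did not pass edgeR's filter, and DESeq2 tested it and did not call it (adjusted p 0.832). So 2 of 3 inhibitors tested by edgeR were called higher, and the most abundant one, at 1.12-fold, was not called.

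On the receiving side of the death ligands, 7 of 10 genes rose in FullDT against PBS and 0 fell, with a median log2 fold change of 0.46; DESeq2 called 5. Fas, the receptor of Fas ligand, rose 2.10-fold (adjusted p 0.000616), and Casp8, the caspase it recruits, 1.42-fold (adjusted p 0.00538). Tnfsf10 encodes TRAIL, a second death ligand, and was abundant enough to follow in each group: it had 99 and 85 counts in PBS, 157, 147 and 134 in EarlyDT, 316, 260 and 285 in LateDT, and 527, 846 and 737 in FullDT. LateDT mice lay between EarlyDT and FullDT mice with no overlap. Tnfsf10 was 2.77-fold higher in LateDT than in PBS (log2 fold change 1.47 ± 0.11, SE; adjusted p 0.0002), 6.85-fold higher in FullDT than in PBS (adjusted p 1.05e-06) and 2.47-fold higher in FullDT than in LateDT (adjusted p 5.17e-06). It was also called higher in LateDT than in EarlyDT (log2 fold change 0.83 ± 0.092, SE; adjusted p 0.000952). In EarlyDT against PBS it did not pass, at 0.64 ± 0.11 (adjusted p 0.359), except with no filter beyond 1 count (adjusted p 0.0299). Ifng, the cytokine that cytotoxic cells release on engagement, had 3 and 0 counts in PBS, at most 4 in any EarlyDT or LateDT mouse, and 54, 82 and 57 in FullDT. Its FullDT to PBS ratio was 38.6, with a counting interval of 13.02 to 189. Without PBS replicate 1, which held all 3 PBS counts, Ifng was at least 18.1-fold higher, and without PBS replicate 2 the ratio was 20.6 (6.93 to 101). Ifng passed the filter only through the FullDT libraries.

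The ligands of NKG2D and CD94 split. H2-T23 encodes Qa-1, which CD94 with NKG2A reads on healthy cells, and rose 5.64-fold in FullDT against PBS (log2 fold change 2.49 ± 0.19, SE; adjusted p 9.56e-06). H60c, an NKG2D ligand of skin, fell: it had 253 and 245 counts in PBS, 238, 292 and 146 in EarlyDT, 186, 138 and 149 in LateDT, and 63, 104 and 83 in FullDT. Its log2 fold change was -1.74 ± 0.17 in FullDT against PBS (adjusted p 5.84e-05) and -0.84 ± 0.17 in LateDT against PBS (adjusted p 0.0195), where 2.69% of the genes tested were called lower. The LateDT call was lost without either PBS mouse and in the fit on the LateDT and PBS libraries alone, with adjusted p between 0.0546 and 0.11. H60c was also called lower in LateDT than in EarlyDT, at -0.63 ± 0.15 (adjusted p 0.0342), a call lost in 7 of 18 alternatives, with adjusted p of up to 0.141. In each of these 2 LateDT comparisons edgeR called 1 gene of this list and DESeq2 called 2. Raet1e and Ulbp1, other NKG2D ligands, did not pass (adjusted p 0.638 and 0.788). In FullDT skin the receptor Klrk1 was thus higher and its ligand H60c lower than in PBS skin.

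Among factors that drive cytotoxic genes, Tbx21 (T-bet) and Zfp683 (Hobit) rose in FullDT, 2 of 6 tested; both passed the filter only through the FullDT libraries. Tbx21 had 1 count in each PBS mouse, 3, 2 and 1 in EarlyDT, 11, 7 and 5 in LateDT, and 48, 59 and 59 in FullDT. The FullDT to PBS ratio was 49.8 (counting interval 13.6 to 415) and the LateDT to PBS ratio 6.78 (1.68 to 59.3). Tbx21 was called higher in LateDT than in PBS (adjusted p 0.034) and than in EarlyDT (adjusted p 0.0453), but the calls were lost in 7 and 13 of 16 alternatives, with adjusted p of up to 0.182 and 0.167. Among these were DESeq2, leaving out either PBS mouse, and leaving out LateDT replicate 1 or 2. Eomes, the related T-box gene, had 5 counts in all over LateDT and 6 over EarlyDT. Zfp683 rose 19.1-fold in FullDT against PBS (adjusted p 0.000512), from 4 and 0 counts in the PBS mice. Without PBS replicate 1 it was at least 12.4-fold higher, and without PBS replicate 2 it was 10.3-fold higher (adjusted p 0.00502). Id2 and Prdm1, which many skin cells express, did not pass (adjusted p 0.169 and 0.221), though Prdm1 passed in 3 of 18 alternatives.

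Of the cytokines and receptors that sustain killer cells, 10 genes were listed and 6 tested, and 5 were called higher in FullDT than in PBS. These were 4 receptor chains and the cytokine Il15, while Il18 was not called. The Il15 call was lost without PBS replicate 1 (adjusted p 0.0617). Il2rb, the shared chain of the interleukin-2 and interleukin-15 receptors, rose 5.26-fold (adjusted p 1.96e-05), and Il2rg, the common gamma chain, 4.95-fold (adjusted p 2.93e-05). Il15ra rose 3.69-fold (adjusted p 1.58e-05) and Il2ra 8.10-fold (adjusted p 0.000976). The PBS mice differed in Il2ra, with 16 and 4 counts: without PBS replicate 1 the difference was 18.5-fold (adjusted p 0.00273), and without PBS replicate 2 it was 5.34-fold (adjusted p 0.0142). In LateDT against PBS edgeR called 0 of the 6, with 1 at an unadjusted p under 0.05, and DESeq2 called 0 of 6.

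Markers of several cell types moved with the effectors, and their part in the result was not tested. In whole skin, more cells of a type and more RNA per cell cannot be told apart. The largest differences were in CD8: Cd8a had at most 3 counts in any mouse outside FullDT and 238, 236 and 296 in FullDT, and Cd8b1 at most 1 outside and 109, 107 and 125 within. Cd8a in FullDT was 231-fold its PBS level, with a counting interval of 63.8 to 1913. Its 2 PBS counts came from replicate 2: without that mouse it was at least 82.0-fold higher, and without PBS replicate 1 the ratio was 108 (29.8 to 895). Cd8a and Cd8b1 passed the filter only through the FullDT libraries. Cd4 rose 7.13-fold (adjusted p 0.000166). The summed level of Cd8a, Cd8b1 and Cd4 was 1.47 and 0.956 CPM in PBS, 1.32, 1.58 and 0.728 in EarlyDT, 1.04, 0.863 and 0.532 in LateDT, and 22.1, 17.7 and 23.2 in FullDT. All 3 rose, and the most abundant per length was Cd4 in the other groups and Cd8b1 in FullDT. LateDT skin, in which Prf1 and Nkg7 lay above PBS, had 2 counts of Cd8a and 2 of Cd8b1 in all.

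Of 7 T cell markers, 6 were called higher in FullDT than in PBS, among them Cd2 (7.92-fold), Cd3d (4.48-fold), Lck (4.09-fold) and Cd3e (2.95-fold), with adjusted p between 2.39e-05 and 0.00032. Their summed level was 15.9 and 19.4 CPM in PBS, 16.0, 18.1 and 19.97 in EarlyDT, 24.9, 22.3 and 19.95 in LateDT, and 57.4, 46.0 and 58.2 in FullDT. Cd3g was the most abundant per length in each group and no marker was at 0 in any group. Of the 7, edgeR called 0 in LateDT against PBS, with 2 at an unadjusted p under 0.05, and DESeq2 called 1, Cd3e (log2 fold change 0.63, adjusted p 0.0487; 0.106 by edgeR). Each LateDT mouse exceeded both PBS mice in the sum of the 7. Ptprc (CD45, on all leukocytes) rose 3.75-fold (adjusted p 0.000301).

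NK receptors and adaptors were called higher in FullDT in 10 of 10 tested, out of 13 listed. Of the 10, 6 (Ncr1, Klrb1c, Klrc1, Klrc2, Klrg1 and Klrb1f) passed the filter only through the FullDT libraries, so this count was partly set by the filter. Ncr1, the receptor that marks NK cells, had 2 and 0 counts in PBS, 2, 0 and 1 in EarlyDT, 2, 3 and 0 in LateDT, and 13, 12 and 16 in FullDT, a ratio to PBS of 12.3 (counting interval 3.20 to 105). The Ncr1 call was lost without PBS replicate 2 (ratio 6.55, counting interval 1.70 to 55.9; adjusted p 0.122), and without PBS replicate 1 Ncr1 was at least 3.84-fold higher. Klrc1, which encodes NKG2A, had 0 and 3 counts in PBS, 4, 2 and 0 in EarlyDT, 14, 7 and 7 in LateDT, and 62, 51 and 83 in FullDT. Klrg1, a receptor of differentiated effector cells, was at 0 in LateDT and had 13, 19 and 14 counts in FullDT, while Klrc2 was at 0 in PBS and EarlyDT. Cd160 rose 3.53-fold (adjusted p 0.00095) and Klrb1f 2.75-fold (adjusted p 0.00447). The summed level was 12.3 and 10.4 CPM in PBS, 7.17, 9.17 and 7.28 in EarlyDT, 9.54, 13.3 and 6.42 in LateDT, and 32.0, 25.9 and 30.7 in FullDT. Tyrobp, which myeloid cells also express, was the most abundant per length in each group.

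Skin holds resident γδ T cells, among them the dendritic epidermal T cells (DETCs), which also carry granzymes. Of their 6 markers, 3 rose in FullDT against PBS: Jaml 3.06-fold (adjusted p 0.00105), Xcl1 2.34-fold (adjusted p 0.00378) and Tcrg-C4 2.09-fold (adjusted p 0.0198, lost in 6 of 18 alternatives, among them DESeq2 and leaving out either PBS mouse). Tcrg-C1, the constant gene of the DETC receptor, had 50 and 56 counts in PBS, 56, 47 and 56 in EarlyDT, 104, 72 and 111 in LateDT, and 71, 93 and 111 in FullDT, with an adjusted p of 0.0502 in FullDT against PBS, and it passed in 4 of 18 alternatives. In LateDT against EarlyDT 2 of the 6 were called higher by edgeR, and 2 by DESeq2. Trdc, the constant gene of the delta chain, had 83, 98 and 82 counts in EarlyDT and 161, 124 and 148 in LateDT, with a log2 fold change of 0.57 ± 0.14 (SE; adjusted p 0.0323), a call lost in 7 of 18 alternatives, among them leaving out any EarlyDT or LateDT mouse (adjusted p of up to 0.113). Tcrg-C1 was the other (adjusted p 0.0491), a call lost in 13 of 18. Against PBS, edgeR called 0 of the 6 in LateDT, with 2 at an unadjusted p under 0.05, and DESeq2 called 0 of 5. The part of these markers in the LateDT levels of Prf1 and Klrk1 was not tested. The summed level was 7.84 and 9.32 CPM in PBS, 7.66, 7.89 and 8.91 in EarlyDT, 12.1, 11.96 and 11.3 in LateDT, and 15.1, 14.6 and 15.7 in FullDT. LateDT lay above PBS and EarlyDT in this sum, as it also did in the neutrophil sum. Pecam1, from the list of skin markers, was also called higher in LateDT than in EarlyDT by edgeR (adjusted p 0.00671). That call was lost in 0 of 18 alternatives, and its part in the LateDT levels of Prf1 and Klrk1 was not tested. No marker of the list was at 0 in any group, and Tcrg-C1 was the most abundant per length except in FullDT, where Xcl1 was. Trdc and Tcrg-V5 were not called in FullDT against PBS. Between FullDT and LateDT, edgeR called 2 of the 6 higher in FullDT, Jaml and Xcl1, and DESeq2 called 1. Trdc, Tcrg-C1 and Tcrg-V5 overlapped between LateDT and FullDT in CPM, while Tcrg-C4 did not.

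Myeloid markers also moved. Neutrophil markers were called higher in FullDT than in PBS in 5 of 5 tested, of which Retnlg passed the filter only through the FullDT libraries, with S100a9 at 5.19-fold (adjusted p 4.69e-06), and their sum was 13.3 and 14.1 CPM in PBS, 11.7, 8.84 and 9.43 in EarlyDT, 17.0, 18.2 and 17.4 in LateDT, and 40.9, 32.7 and 34.9 in FullDT. S100a8 was the most abundant per length. Ly6g, also on the list, was near the floor in every group and was not tested. It had 1 count in each PBS mouse, 0 in each EarlyDT mouse, 0, 1 and 0 in LateDT, and 1, 0 and 2 in FullDT. In LateDT against EarlyDT S100a9 (log2 fold change 1.42 ± 0.15, SE; adjusted p 0.000905) and S100a8 (0.66 ± 0.15; adjusted p 0.0254) were called higher by edgeR and by DESeq2. The S100a8 call was lost in 4 of 18 alternatives, among them leaving out EarlyDT replicate 2 or 3 or LateDT replicate 3 (adjusted p of up to 0.11). S100a9 was also called by edgeR in LateDT against PBS (0.65 ± 0.16; adjusted p 0.0467), a call lost in 13 of 18 alternatives, among them DESeq2 and leaving out any single mouse other than LateDT replicate 3 (adjusted p of up to 0.253). Macrophage and monocyte markers rose in 3 of 6, with Itgam at 5.37-fold (adjusted p 0.000325). Their sum was 160 and 113 CPM in PBS, 112, 126 and 81.0 in EarlyDT, 110, 169 and 73.0 in LateDT, and 281, 233 and 294 in FullDT, with Lyz2 the most abundant per length. The PBS mice differed from each other in the monocyte marker Ly6c2, with 71 counts in replicate 1 and 3 in replicate 2. In FullDT against PBS edgeR and DESeq2 each called 0 of the 6 mast cell markers and 0 of the 2 B cell markers tested, with 0 at an unadjusted p under 0.05 in either list. Of these, the B cell marker Cd79b passed the filter only through the FullDT libraries. Of the mast cell markers edgeR called 0 in LateDT against PBS, with 3 at an unadjusted p under 0.05, and DESeq2 called 1, Cpa3. In FullDT against EarlyDT both called 1, Tpsab1. Mast cell markers summed to 139 and 148 CPM in PBS, 124, 119 and 101 in EarlyDT, 107, 122 and 53.4 in LateDT, and 137, 111 and 117 in FullDT. B cell markers stayed under 1 CPM in sum in every mouse. Among the 6 genes listed as skin markers, Krt14 and Pecam1 were called higher in FullDT than in PBS and Krt10 and Col1a1 lower, with log2 fold changes from -1.02 to 0.69. The calls of Krt14, Krt10 and Col1a1 were lost in 3, 4 and 5 of 18 alternatives. DESeq2 called all 6, adding Krt5 as higher (adjusted p 0.0179) and Krt15 as lower (adjusted p 0.0388). In LateDT against PBS edgeR called Pecam1 higher (adjusted p 0.022, lost in 5 of 18 alternatives). In LateDT against EarlyDT it called Pecam1 (adjusted p 0.00671) and Krt15 (adjusted p 0.048) higher, lost in 0 and 13 of 18 alternatives. DESeq2 called 2 skin markers in each of these LateDT comparisons.

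**Figure D4:**
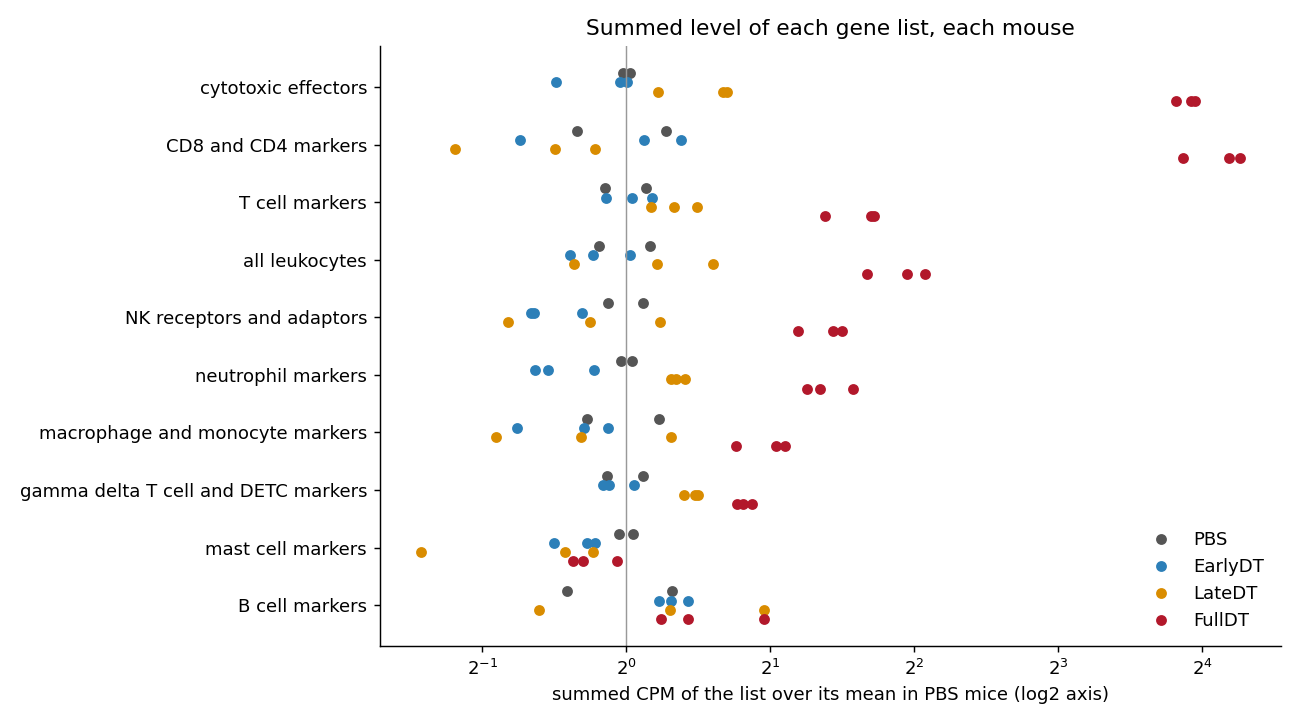
Summed CPM of each gene list in each mouse, divided by the mean of the 2 PBS mice (horizontal axis, log2 scale), with 1 row per list and 1 colour per group. In FullDT the effectors and the CD8 and CD4 markers lie farthest from PBS, with ratios of group means of 14.9 and 17.3, T cell markers at 3.05 and mast cell markers at 0.847.

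Set against the leukocyte marker Ptprc, the effectors compared (all but Gzmk, Fasl and Eomes) fell into groups. Klrk1 had 9.73 ± 0.225 counts (SD, n = 2) for each 100 counts of Ptprc in PBS and 9.29 ± 0.351 (n = 3) in FullDT, and these mice overlapped. Klrd1 moved from 2.16 ± 0.566 to 4.09 ± 1.01, Prf1 from 5.62 ± 1.89 to 10.8 ± 2.37, Gzmc from 13.5 ± 3.12 to 23.1 ± 4.24 and Nkg7 from 10.4 ± 3.37 to 20.5 ± 2.04. Gzmb went from 0.378 ± 0.534 to 56.4 ± 9.94, and Gzma from 0.435 ± 0.0972 to 37.3 ± 2.53. In LateDT, Prf1 was at 8.80 ± 1.65 and Klrk1 at 11.8 ± 0.661 for each 100 counts of Ptprc, but Gzmb was at 0.594 ± 0.256. For each 100 counts of Cd3d, Cd3e and Cd3g together, Prf1 was at 6.64 ± 0.153 in PBS, 4.85 ± 0.0926 in EarlyDT, 8.97 ± 0.724 in LateDT and 17.2 ± 3.05 in FullDT, with no overlap between any of these groups. Against the same sum, Nkg7, Klrk1, Klrd1 and Gzmc overlapped between PBS and EarlyDT, and Klrk1, Klrd1 and Gzmc between PBS and LateDT. These ratios are descriptions, with no test.

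Outside the 10, the genes whose log2 CPM followed the mean log2 CPM of the effectors most closely over the 11 libraries were Il2rg (Pearson's r 0.994), Gsdmc2 (0.993), C3 (0.993), Rasal3 (0.993), Serpina3n (0.993), Pdcd1lg2 (0.992), Sectm1a (0.992) and Csf2rb (0.991). The libraries share their groups, so r mainly reflects how far FullDT stood from the rest, and no test was made. Gsdmc2, a gasdermin, had 2 counts in each PBS mouse, 0 in each EarlyDT mouse, 5, 4 and 1 in LateDT, and 319, 377 and 380 in FullDT. C3, a complement component, had 154 and 56 counts in PBS, and 6651, 8564 and 10873 in FullDT.

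The promoters of the effectors were read for letters that factors of killer cells bind. RefSeq promoters (GRCm38.p6, 250 bases before to 50 after the gene's start) were matched by symbol for 9 of the 10 genes. On either strand, the RUNX core TGTGGTT was found in 4 of 9 (Gzma, Gzmb, Gzmc and Klrk1) and in 5.27% of 32851 promoters. The T-box letters GGTGTGA were in 2 of 9 (Gzmk and Nkg7) and in 3.98% of all, and the AP-1 letters TGANTCA in 2 of 9 (Gzmb and Klrk1) and in 7.81% of all. A match is a description of the sequence, not evidence of a bound site. The promoters of the 4 genes with the RUNX letters are shown 5′ to 3′ on the gene's strand, which is minus for each, with the match in capitals (AACCACA is the same letters on the opposite strand). They lie at chr14:56262285-56262584 for Gzmb, chr14:56234608-56234907 for Gzmc, chr13:113100932-113101231 for Gzma and chr6:129623815-129624114 for Klrk1.
Gzmb: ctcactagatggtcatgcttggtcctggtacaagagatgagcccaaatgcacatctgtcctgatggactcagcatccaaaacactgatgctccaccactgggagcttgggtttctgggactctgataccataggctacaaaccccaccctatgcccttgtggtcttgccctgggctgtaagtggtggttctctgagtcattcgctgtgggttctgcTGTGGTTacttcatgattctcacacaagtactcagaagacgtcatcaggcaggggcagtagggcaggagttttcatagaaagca
Gzmc: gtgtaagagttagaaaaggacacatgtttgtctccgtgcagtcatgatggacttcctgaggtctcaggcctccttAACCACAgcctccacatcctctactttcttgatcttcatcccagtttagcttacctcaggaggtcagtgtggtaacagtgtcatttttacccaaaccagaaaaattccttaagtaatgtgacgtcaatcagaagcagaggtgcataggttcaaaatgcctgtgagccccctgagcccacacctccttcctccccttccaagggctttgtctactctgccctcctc
Gzma: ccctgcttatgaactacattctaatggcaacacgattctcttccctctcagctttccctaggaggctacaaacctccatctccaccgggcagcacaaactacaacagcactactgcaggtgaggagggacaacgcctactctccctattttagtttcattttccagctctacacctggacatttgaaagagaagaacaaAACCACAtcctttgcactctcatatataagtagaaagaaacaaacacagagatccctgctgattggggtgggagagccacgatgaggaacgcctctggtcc
Klrk1: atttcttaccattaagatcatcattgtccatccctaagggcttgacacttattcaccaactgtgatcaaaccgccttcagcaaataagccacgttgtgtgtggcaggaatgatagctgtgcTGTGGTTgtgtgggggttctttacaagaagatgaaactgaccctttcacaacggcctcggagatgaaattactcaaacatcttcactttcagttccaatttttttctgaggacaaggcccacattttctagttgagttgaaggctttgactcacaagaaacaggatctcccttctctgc

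Distances are counted from the RefSeq start, which need not be the end of the gene printed above. The RefSeq start of Gzmb lies 74 bases upstream of it and that of Gzmc 1 base upstream, while those of Gzma and Klrk1 are the same base. For Gzmk, with the T-box letters, the RefSeq start lies 44943 bases inside the gene. The first base of the RUNX match lay 34 bases before the start in Gzmb, 51 before it in Gzma, 129 before it in Klrk1 and 175 before it in Gzmc. Gzmb and Gzmc, which share a chromosomal neighbourhood and the RUNX letters, had 3 and 88 counts in PBS skin.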

How the data were processed

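Whole skin of 11 mice was sequenced in bulk. The authors trimmed reads with Trimmomatic 0.36, aligned them to GRCm38 with STAR 2.5.2b and counted unique reads on exons with featureCounts (Subread 1.5.2), and deposited raw counts per gene. Counts were fitted in R 4.3.3 with edgeR 4.0.16: filterByExpr by group, TMM scaling and a mean per group over all 11 libraries, followed by quasi-likelihood tests of 6 pairs of groups with Benjamini-Hochberg adjustment over 18375 genes. CPM use TMM-scaled sizes. Log2 CPM for likeness has a prior count of 2. Lengths and coordinates come from GENCODE on GRCm38; the annotation release and strand setting of the counting are not stated. Fits were tested on simulated data.

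Against a group at 0, folds use a floor of 3 counts over the group. With 1 to 3 counts they are ratios with exact 95% intervals on counts pooled over the mice of each group.

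The effectors and gene lists were chosen with earlier results of these data known. Named genes are all effectors, granzymes, granule machinery and inhibitors, the 4 of each other list with the smallest p in FullDT against PBS, Cd3e, Cd8a, Cd4, Ncr1, Ptprc and Foxp3, and the 8 most alike with a mean count of at least 50. Klrc2, Klrb1c, Trdc, Tcrg-V5, Ly6g, Cd3g, Tyrobp, Lyz2, Il15, Il18, Krt5 and Krt15 were chosen after their values were seen.

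Alternatives were DESeq2 1.42.0, fits on 2 groups, other scaling (RLE or library size), other filters and each mouse left out.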

Additional observations from a re-analysis of the deposited data

How the results depend on the processing

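The effector counts in the 3 FullDT comparisons were 10 in each alternative, with these exceptions. With the filter set on the 8 libraries outside FullDT, chosen after seeing the data, 5 effectors were tested and 5 were called in each. With each mouse left out they ran from 9 to 10, since Fasl was not tested without FullDT replicate 3. In EarlyDT against PBS 0 effectors were called in every alternative. In LateDT against PBS the leave-one-out range was 0 to 1 (Klrd1 without LateDT replicate 3), and in LateDT against EarlyDT 1 to 3. There 1 was called on the 2 groups alone, 1 with library size only, and 3 (Prf1, Nkg7 and Klrk1) with no filter beyond 1 count. The cause was not tested.

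Of all genes, 3946 were called in FullDT against PBS, 2026 to 4520 with a mouse left out (lowest without PBS replicate 2), and 3096 in FullDT against LateDT, 1987 to 3385 (lowest without FullDT replicate 1). EarlyDT against PBS had 1, with 10 by DESeq2, 54 with no filter beyond 1 count, 0 on the 2 groups alone, 0 with the filter outside FullDT and 0 to 7 with a mouse left out. LateDT against PBS had 836, with 154 on the 2 groups alone, 1790 with no filter and 292 to 903 (292 and 377 without PBS replicate 1 and 2). LateDT against EarlyDT had 1173, with 540, 2173 and 353 to 1248 (573, 353 and 619 without EarlyDT replicates 1, 2 and 3).

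Log2 fold changes near 0 turned sign with a mouse left out. In EarlyDT against PBS these were Gzmc (0.0065 without PBS replicate 2, 0.16 without EarlyDT replicate 1, range -0.197 to 0.16), Nkg7 (0.13 without either of these, range -0.19 to 0.13) and Klrd1 (-0.069 without PBS replicate 1, -0.18 without EarlyDT replicate 2, range -0.18 to 0.13). In LateDT against PBS it was Gzmc (-0.0035 without LateDT replicate 1, range to 0.29), and in FullDT against PBS Gzmm (-0.035 without PBS replicate 1, -0.16 without FullDT replicate 1, range to 0.21) and Ulbp1 (0.11 without PBS replicate 2, 0.057 without FullDT replicate 2, range from -0.44). Of 2282 values of single genes under alternatives, 2102 kept direction and side of the threshold, 137 lost the threshold, 32 gained it and 11 turned sign.

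No paired analysis was possible because the labels number all libraries in a single series and link no mice across groups; replicate numbers here follow that order. With a PBS mouse left out, the other is assumed to vary like the other groups. Gzma, Gzmb, Gzmk, Fasl and Eomes had 0 to 5 counts per mouse outside FullDT, so small differences among those groups were not detectable at this depth.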
